A study of Drosophila melanogaster with 13 samples.

Results

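The *roX1 roX2* mutant was compared with wildtype in whole first instar larvae, male by the study's methods, by sequencing of polyadenylated RNA. The comparison held 6 of the 13 libraries of the series, 3 of the *roX1 roX2* mutant (replicates 2, 3 and 4) and 3 of wildtype (replicates 1, 3 and 4), chosen by their genotype labels. The other 7 libraries, 4 of the *roX1* mutant and 3 of the *roX2* mutant, entered the same fit and are given beside single genes. By their strain labels both genotypes carried the *yellow* and *white* alleles y[1] and w[1118], to which the mutant added roX1[ex6] and roX2[9-4]. The methods of the study add *v*[1] to the mutant chromosome. The mothers of the mutant larvae carried the *FM7i* balancer marked with GFP, all mothers were mated to *FM7i* males with the same marker, and larvae without GFP were pooled for each library. The roX2[9-4] allele is a CRISPR-Cas9 deletion. Each genotype was a single strain and the strains were not isogenic, so the loss of both *roX* RNAs and other differences between the strains cannot be told apart.

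In *Drosophila* males, the MSL complex raises transcription of genes on the single X-chromosome. It holds the proteins MSL1, MSL2, MSL3, MLE and the histone acetyltransferase MOF, together with the long non-coding RNAs *roX1* and *roX2*, and acetylates histone H4 on lysine 16 (H4K16ac). The *roX* RNAs are largely redundant for the survival of males. Functional classes and single genes on the X-chromosome are described apart from those on the autosomes.

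Counts on genes were between 50107121 and 83954893 in the mutant libraries and between 60166861 and 82769481 in the wildtype libraries. A gene was called changed when its adjusted p was under 0.05 in edgeR's quasi-likelihood test, and 1269 of 13975 genes tested (9.08%) were called. Levels are given as CPM, counts scaled to a common library size after TMM normalization, and log2 fold changes are mutant over wildtype. In 1265 of the 1269 genes the mutant libraries lay all above or all below the wildtype libraries. These genes were chosen by the test, which favours such separation. The count is therefore no further support for the calls, and the share over all genes tested is not given. Wildtype replicate 1 stood apart: the autosomal first component, which held 58.2% of the variance of 8283 genes, placed it at -29.6, against 27.6, 29.4 and 24.2 for the mutant libraries and 22.1 and 20.8 for the other wildtype libraries. The part of this difference in single results was not tested, and list counts are therefore also given without this library, a choice made after the data were seen. The 3 single mutant libraries with a negative first component were left out with it in a second fit. In whole larvae, fewer cells of a type and less RNA per cell cannot be told apart.

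The targeted genes followed the labels. The RNA of *roX1* (*lncRNA:roX1*, FBgn0019661, BDGP6 chromosome X, 3857230 to 3862697) had 4.06, 2.77 and 1.40 CPM in the mutant libraries, against 1131, 1035 and 971 CPM in the wildtype libraries. The log2 fold change was -8.57 (adjusted p = 3.31e-05, standard error 0.62), beside -8.88 in *roX1* mutant larvae and 0.73 in *roX2* mutant larvae. The 3 mutant libraries held 1, 0 and 3 reads of *roX2* (*lncRNA:roX2*), and the wildtype libraries held 1492, 1648 and 1525 reads. Per read on genes, *roX2* was 1235 times more abundant in wildtype (95% counting interval 482 to 4534). *roX2* was thus almost without reads in the mutant, while *roX1* was strongly reduced and still counted, with 398, 161 and 93 reads.

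Another X-linked gene that marks the strain was almost without reads. *v* (FBgn0003965, BDGP6 chromosome X, 10923972 to 10925631), the tryptophan dioxygenase of the brown eye pigment pathway, had 0.0917, 0.0861 and 0.120 CPM in the mutant libraries, against 18.5, 21.8 and 26.6 CPM in the wildtype libraries (log2 fold change -7.79, adjusted p = 1.54e-05). The *roX2* mutant, whose label does give *v*[1], had a log2 fold change of -6.30, and the *roX1* mutant, whose label gives no *v* allele, had 0.66. Of the other 6 X-linked genes of eye pigmentation tested, *rb* (log2 fold change -0.70, adjusted p = 0.0101) and *car* (-0.59, adjusted p = 0.0151), which encode proteins of vesicle sorting to pigment granules, were lower. The 7 members had a median of -0.59, and the share of lower genes over the whole X-chromosome was 27.0%.

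The X-chromosome as a whole was lower in the mutant. X-linked genes took 10.7, 10.6 and 10.6% of the counts on genes outside the mitochondrial genome in the mutant libraries, against 14.2, 14.3 and 14.2% in the wildtype libraries. The groups did not overlap, and the difference of -3.57 percentage points had an exact two-sided permutation p of 0.1, the smallest that 3 against 3 libraries can give. In each library, the median log2 CPM of 1600 X-linked genes minus that of 8283 genes of the major autosome arms, set against the wildtype mean of each gene, was -0.55 ± 0.02 in the mutant and 0.00 ± 0.02 in wildtype (SD, n = 3 each). Of 2142 X-linked genes tested, 578 (27.0%) were lower and 17 (0.794%) were higher. Of 11599 autosomal genes, 452 (3.90%) were higher and 203 (1.75%) were lower.

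The X-linked genes had a median log2 fold change of -0.55 with quartiles of -0.86 and -0.23, and 17.7% lay below -1. The autosomal genes had a median of 0.05 with quartiles of -0.30 and 0.35, and 7.98% lay below -1. The median was nearer to 0 among weakly expressed X-linked genes. With the X-linked genes split by mean level into 4 groups of 535 or 536, the weakest group had a median of -0.35 and 2.80% of it were lower. In the following groups the medians were -0.54, -0.59 and -0.61, with 22.4%, 44.1% and 38.6% lower, and counting errors are largest in the weakest group. The higher autosomal genes were spread over the arms 2L (98 genes), 2R (109), 3L (98) and 3R (146), as were the lower ones (34, 67, 42 and 60). On chromosome 4, 1 of 105 genes was higher and none was lower, with a median of 0.08.

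**Figure D1:**
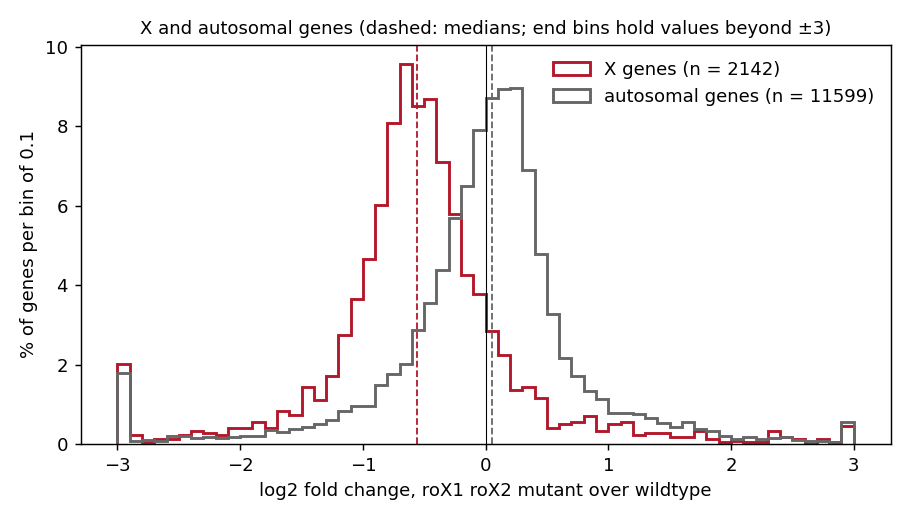
Distribution of log2 fold changes (*roX1 roX2* mutant over wildtype, x axis) as percent of genes per bin of 0.1 (y axis) for 2142 X-linked genes (red) and 11599 autosomal genes (grey), with dashed lines at the medians of -0.55 and 0.05. The peak of the X-linked distribution lies to the left of the autosomal peak, and the end bins collect values beyond 3 in either direction.

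The balance of autosomal calls depended on the scaling. With normalization factors from genes of the major autosome arms alone, 273 autosomal genes were higher and 298 were lower, in place of 452 and 203. The counts also changed with single libraries: without mutant replicate 3, 205 X-linked genes were lower, and 112 autosomal genes were higher and 66 were lower, and without mutant replicate 2 these counts were 242, 95 and 71. Without wildtype replicate 4, 355 X-linked genes were lower, and 127 autosomal genes were higher and 98 were lower.

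X-linked genes of mitochondrial energy supply were lower in the mutant. Of 10 X-linked genes of the nuclear respiratory chain and ATP synthase, 9 were lower and none was higher, where 27.0% of all X-linked genes were lower. That share was 44.1% and 38.6% in the more abundant level groups of X-linked genes. The median log2 fold change of the 10 genes was -0.96, beside -0.55 over all X-linked genes. In the test relative to the X-chromosome, described further on, none of the 10 was lower. *COX6B* (FBgn0031066, BDGP6 chromosome X, 19740537 to 19744335), a subunit of cytochrome c oxidase, had 141, 143 and 191 CPM in the mutant libraries, against 345, 320 and 373 CPM in the wildtype libraries (log2 fold change -1.13, standard error 0.22, adjusted p = 0.0101). *ND-20* of complex I had 80.5, 78.2 and 108 CPM in the mutant and 171, 160 and 190 CPM in wildtype (log2 fold change -0.96, adjusted p = 0.0132). In both genes all mutant libraries lay below all wildtype libraries, and mutant replicate 4 was the highest of the mutant.

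The same position of replicate 4 was seen in the median of the class. It was -1.08, -1.21 and -0.64 in mutant replicates 2, 3 and 4 and -0.07, -0.07 and 0.13 in wildtype replicates 1, 3 and 4, on the scale of log2(CPM + 1) set against the wildtype mean. The 68 autosomal members had a median log2 fold change of -0.40, beside 0.05 over all autosomal genes, but edgeR called none of them. At an unadjusted p under 0.05, 12 autosomal members were lower and none was higher, and DESeq2 called 3 lower. The count of lower X-linked members was 6 without wildtype replicate 1, 8 without the 4 libraries with a negative component, 5 and 1 without wildtype replicates 3 and 4, 10 without mutant replicate 4 and 0 without mutant replicate 2 or 3.

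Translation in mitochondria was described by the mitochondrial ribosomal proteins, of which 7 of 12 X-linked members were lower (median -1.0) and none of 60 autosomal members was called by edgeR (median -0.22). No autosomal member passed an unadjusted p of 0.05 or the DESeq2 test either. Set against their own chromosome, none of the 12 X-linked members was lower. *mRpL22* of the large subunit had 17.8, 14.9 and 22.3 CPM in the mutant libraries, against 34.2, 41.0 and 44.5 CPM in the wildtype libraries (log2 fold change -1.12, adjusted p = 0.0157). The count of lower X-linked members was 6 without wildtype replicate 1, 11 without the 4 libraries with a negative component, 4 and 1 without wildtype replicates 3 and 4 and 0 without mutant replicate 2 or 3. Among 15 genes of the mitochondrial genome itself, 2 were lower (*mt:ND5* and *mt:ND6*). These were 4 without wildtype replicate 3 and none without any 1 of the other 5 libraries. The median log2 fold change of the 15 genes was -0.96, with 14 below 0, and -0.50 without wildtype replicate 1. The share of the mitochondrial genome in all counts on genes was not lower. It was 13.35, 13.6 and 12.09% in mutant replicates 2, 3 and 4. In wildtype replicates 1, 3 and 4 it was 11.34, 12.16 and 13.76%, so the groups overlapped. Wildtype replicate 1 had the highest *mt:ND5* level, with 543, 639 and 867 CPM in the mutant libraries against 2180, 1096 and 1337 CPM in wildtype replicates 1, 3 and 4.

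Of 2 X-linked glycolytic enzymes 1 was lower, *Gapdh2*, and the other had a log2 fold change of -0.33. *Gapdh2* had 465, 511 and 630 CPM in the mutant libraries, against 1016, 1158 and 1215 CPM in the wildtype libraries (log2 fold change -1.08, adjusted p = 0.0294), and was called in 2 of the 6 fits that left out a library. A pair of other abundant X-linked genes is given beside it, chosen after their values were seen. *sesB*, the mitochondrial ATP/ADP carrier, had 2340, 2717 and 3041 CPM in the mutant libraries, against 4064, 4296 and 4677 CPM in the wildtype libraries (log2 fold change -0.69, adjusted p = 0.0149), and was called in 3 of the 6 fits. *Idh3a*, a subunit of isocitrate dehydrogenase of the citric acid cycle, had 202, 217 and 235 CPM in the mutant and 479, 449 and 473 CPM in wildtype (log2 fold change -1.10, adjusted p = 0.000674). Of these 3 genes, *Idh3a* was also lower than its own chromosome, as described further on.

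Cytoplasmic ribosomal proteins gave no call by edgeR on either side of the X and autosome division. The 13 X-linked members had a median of -0.48 and all had negative log2 fold changes, between -0.62 and -0.08. At an unadjusted p under 0.05, 10 of them were lower, and DESeq2 called 7 lower. The 66 autosomal members had a median of -0.03, with 1 higher and 1 lower at an unadjusted p under 0.05 and 1 higher by DESeq2. The median of the X-linked members was -0.56, -0.63 and -0.27 in the mutant libraries and -0.02, -0.09 and 0.10 in the wildtype libraries, so the groups did not overlap, and mutant replicate 4 was again nearest to wildtype.

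Other parts of the protein machinery had lower X-linked members beside autosomal partners without a call. All 3 X-linked aminoacyl-tRNA synthetases were lower (median -0.90), among them *ArgRS* with 18.5, 20.6 and 21.5 CPM in the mutant and 42.6, 34.4 and 36.0 CPM in wildtype (adjusted p = 0.00582). The 29 autosomal synthetases had a median of 0.02. Of 4 X-linked proteasome subunits, 3 were lower (median -0.80), all of them ATPases of the regulatory particle (*Rpt3*, *Rpt4* and *Rpt6*), and the 28 autosomal subunits had a median of -0.07. The 3 proteasome calls were lost without wildtype replicate 1 and likewise without mutant replicate 2, 3 or 4, and they were 4 and 2 without wildtype replicates 3 and 4. *Rpt3* had 39.3, 34.5 and 41.1 CPM in the mutant libraries, against 85.3, 55.3 and 61.4 CPM in wildtype replicates 1, 3 and 4. edgeR and DESeq2 called none of the autosomal synthetases and proteasome subunits, and at an unadjusted p under 0.05, 1 synthetase was higher. Of 24 autosomal subunits of the vacuolar ATPase, the proton pump of acidic organelles, 1 was higher, *VhaAC45RP* (log2 fold change 0.71, adjusted p = 0.00307), where 3.90% of all autosomal genes were higher. The 1 X-linked subunit tested, *Vha36-3*, was lower (log2 fold change -1.03) and was called in 4 of the 6 fits that left out a library. Over the whole X-chromosome 27.0% of genes were lower, and relative to it no X-linked member of these lists was lower.

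**Figure D2:**
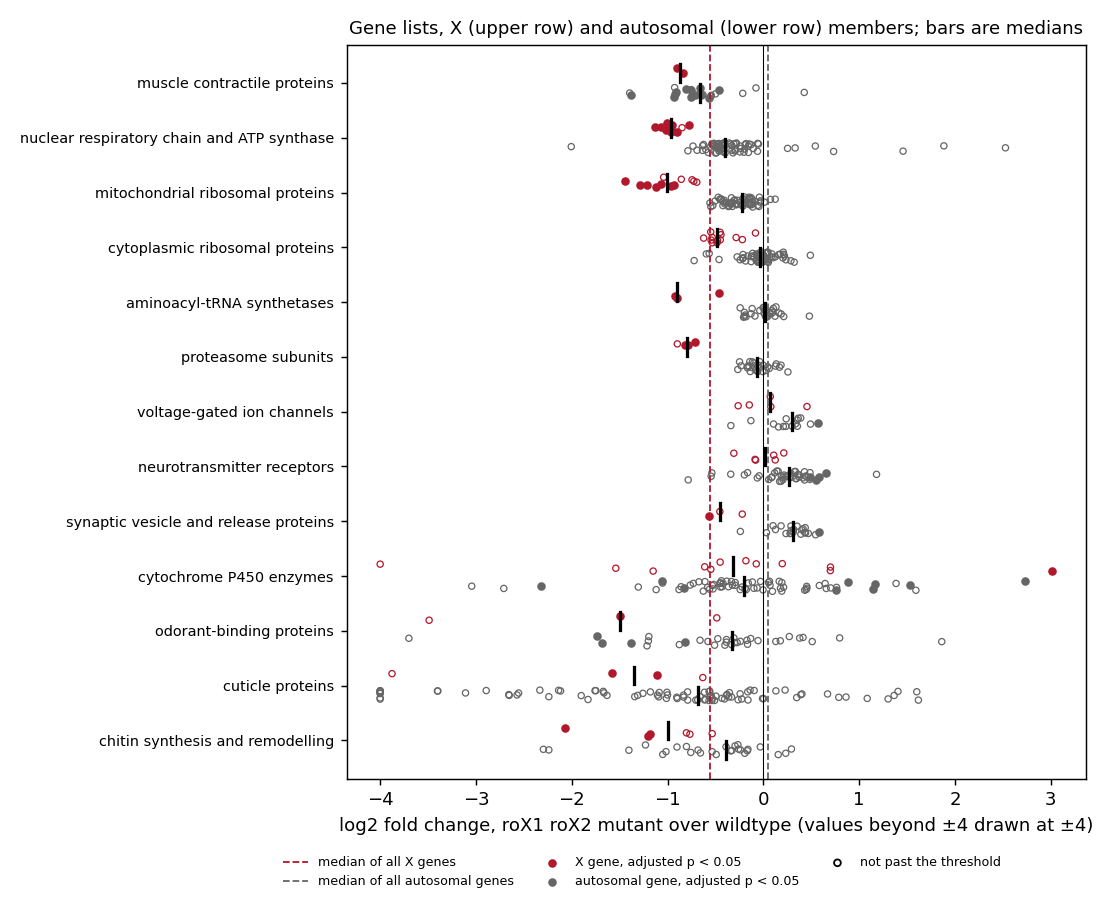
Log2 fold changes (*roX1 roX2* mutant over wildtype, x axis) of the members of 13 gene lists, with X-linked members in red in the upper line and autosomal members in grey in the lower line of each list; black bars are medians, filled points passed an adjusted p of 0.05, and values beyond 4 in either direction are drawn at 4. The X-linked medians of respiratory chain genes (-0.96) and mitochondrial ribosomal proteins (-1.0) lie left of the dashed red median of all X-linked genes (-0.55), and those of voltage-gated ion channels (0.07) and neurotransmitter receptors (0.01) lie right of it.

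Genes of the contractile apparatus were lower on the autosomes as well as on the X-chromosome. Of 23 autosomal muscle contractile proteins, 12 were lower and none was higher, with a median log2 fold change of -0.67, where 1.75% of all autosomal genes were lower. *Mlc2* (FBgn0002773, BDGP6 chromosome 3R, 30171438 to 30174551), a light chain of muscle myosin, had 2819, 3384 and 3927 CPM in the mutant libraries, against 6092, 6271 and 6887 CPM in the wildtype libraries (log2 fold change -0.93, standard error 0.16, adjusted p = 0.00713). *Act57B*, a larval muscle actin, had 4902, 6400 and 6204 CPM in the mutant and 10620, 11349 and 11334 CPM in wildtype (log2 fold change -0.93, adjusted p = 0.0172). Both genes were among the most abundant autosomal genes that were called, a selection that required groups that did not overlap.

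The thin filament and its regulators showed the same direction. *Act87E*, a further actin, had 101, 136 and 172 CPM in the mutant and 278, 383 and 408 CPM in wildtype (log2 fold change -1.39, adjusted p = 0.00816). *Tm2*, a tropomyosin, and *TpnC73F*, a calcium-binding troponin, were lower, with log2 fold changes of -0.75 and -0.72 (adjusted p of 0.0104 and 0.0082). The X-linked members *up* (troponin T) and *wupA* (troponin I) were at -0.84 and -0.90 (adjusted p of 0.00861 and 0.00603). The thick filament gene *Mhc*, the muscle myosin heavy chain, had 3502, 5117 and 4565 CPM in the mutant and 7180, 9613 and 8250 CPM in wildtype, which did not pass the test (log2 fold change -0.93, adjusted p = 0.115).

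The single mutants are given beside this for a thick and a thin filament gene. *Mlc2* had log2 fold changes of -0.19 in the *roX1* mutant and -0.05 in the *roX2* mutant, and *wupA* had -0.02 and -0.12; all comparisons share the wildtype libraries. The median of the 23 autosomal members was -0.80, -0.59 and -0.60 in the mutant libraries and -0.07, 0.03 and 0.03 in the wildtype libraries. The count of lower autosomal members was 10 without wildtype replicate 1, 12 without the 4 libraries with a negative component, 7 and 6 without wildtype replicates 3 and 4, and 4 and 5 without mutant replicates 2 and 3. *Mlc2*, *Act87E*, *TpnC73F* and *wupA* were called in all 6 fits that left out a library, *up* in 5, *Tm2* in 4 and *Act57B* in 2.

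X-linked neurotransmitter receptors and voltage-gated ion channels had medians near 0, and X-linked synaptic genes did not. Of 6 X-linked neurotransmitter receptors and 5 X-linked voltage-gated ion channels, edgeR called none in either direction, also at an unadjusted p under 0.05 and by DESeq2. Their medians were 0.01 and 0.07, beside -0.55 over all X-linked genes. With normalization over autosomal genes these medians were -0.07 and -0.01. The receptor medians of the libraries overlapped between the groups, with -0.03, 0.11 and 0.07 in the mutant libraries and -0.27, 0.29 and -0.07 in the wildtype libraries. The 3 X-linked synaptic vesicle and release proteins had a median of -0.45, with all 3 below 0.

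The autosomal neuronal lists had positive medians and few calls. Of 44 autosomal neurotransmitter receptors 4 were higher and none was lower (median 0.27), where 3.90% of all autosomal genes were higher. *GABA-B-R2* (FBgn0027575, BDGP6 chromosome 3R, 21770333 to 21775840), a metabotropic GABA receptor, had 139, 144 and 138 CPM in the mutant libraries, against 69.8, 108 and 89.2 CPM in the wildtype libraries (log2 fold change 0.65, adjusted p = 0.0228). The other 3 were the acetylcholine receptor subunit *nAChRbeta1* (0.58), the dopamine and ecdysteroid receptor *DopEcR* (0.49) and the kainate-type receptor *KaiR1D* (0.55). None of the 4 was called without wildtype replicate 1, which had the lowest *GABA-B-R2* and *nAChRbeta1* levels of the wildtype libraries, and none without wildtype replicate 4 or mutant replicates 2 or 3.

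The same list holds the glutamate receptor subunits of the neuromuscular junction, described here after their values were seen. None of them passed the test. *GluRIIA* had a log2 fold change of -0.78 (adjusted p = 0.134) and *GluRIIB* of -0.54 (adjusted p = 0.145), and *GluRIIC*, *GluRIID* and *GluRIIE* had -0.34, -0.54 and -0.16. *GluRIIA* had 18.8, 23.5 and 22.3 CPM in the mutant libraries and 23.2, 43.9 and 44.0 CPM in wildtype replicates 1, 3 and 4, so the groups overlapped through wildtype replicate 1. Of the 44 autosomal receptors of the list, 1 was called lower without that library and none was called higher. Without the 4 libraries with a negative component 2 were lower and none was higher. With a replicate block 2 were lower and 2 were higher.

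Calls among synaptic genes were few, and their shares were near those of all genes. *Syn*, the synapsin of synaptic vesicles, was the 1 of 22 autosomal synaptic vesicle and release proteins called, where 3.90% of all autosomal genes were higher, and the list had a median of 0.31. It had 207, 254 and 232 CPM in the mutant and 126, 190 and 146 CPM in wildtype (log2 fold change 0.58, adjusted p = 0.0421). The X-linked *shi*, the dynamin of vesicle endocytosis, was the 1 of 3 X-linked members called, where 27.0% of all X-linked genes were lower. It had 124.9, 138 and 146 CPM in the mutant and 220, 214 and 173 CPM in wildtype (log2 fold change -0.57, adjusted p = 0.0275). *Syn* and *shi* were each called in 1 of the 6 fits that left out a library, *Syn* without wildtype replicate 3 and *shi* without wildtype replicate 4. Among marker genes of neurons and glia, the astrocyte gene *alrm* was higher (0.71, adjusted p = 0.023) and the X-linked *moody*, a receptor of the glial blood-brain barrier, was lower (-0.71, adjusted p = 0.0124), and these calls were kept in 2 and 5 of those fits. The summed level of the 6 autosomal neuron and glia markers was 1403 to 1623 CPM in the mutant libraries and 1075 to 1328 CPM in the wildtype libraries, and the part of cell composition in these results was not tested.

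**Figure D3:**
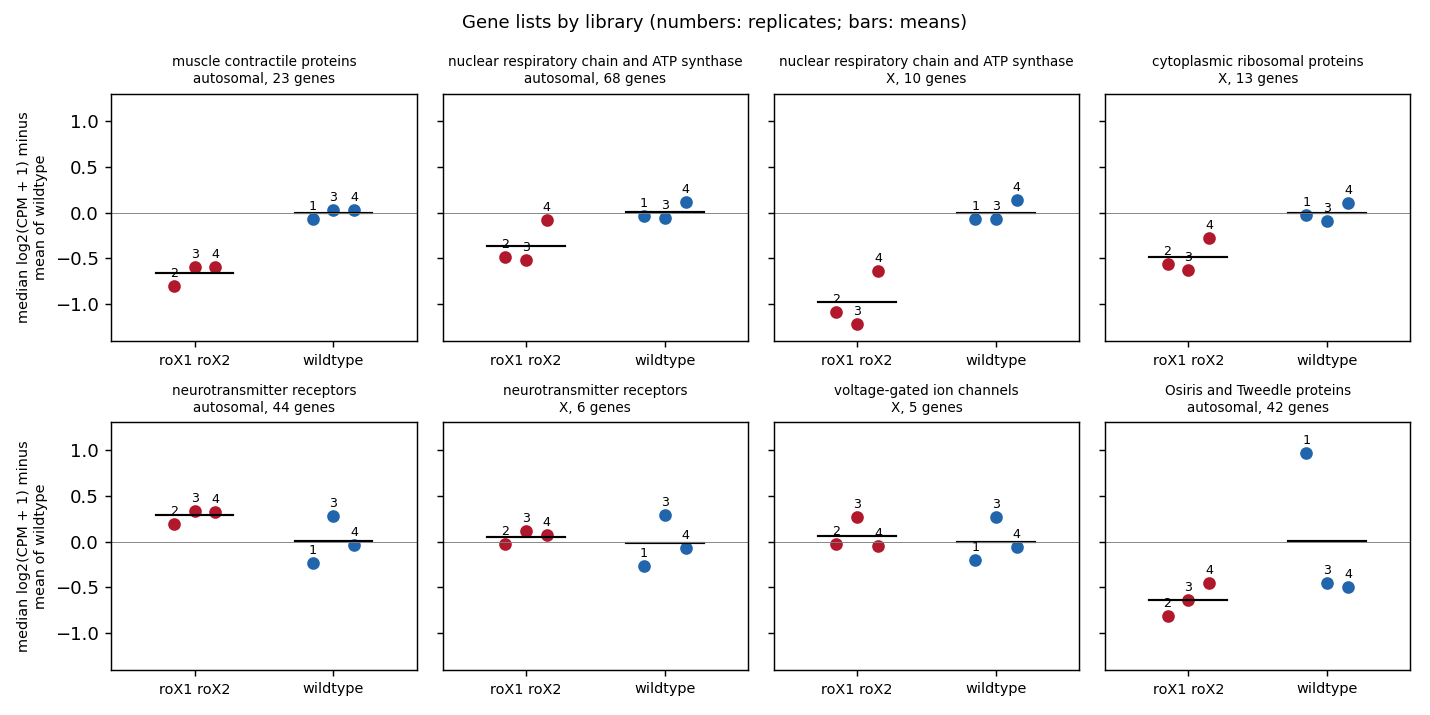
Median over the members of 8 gene lists of log2(CPM + 1) minus the wildtype mean (y axis) in each *roX1 roX2* library (red, left) and each wildtype library (blue, right); numbers are replicates and bars are means. Muscle contractile proteins and X-linked respiratory chain genes do not overlap between the groups, neurotransmitter receptors do, and wildtype replicate 1 at 0.97 lies above all other libraries in the Osiris and Tweedle proteins.

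To find X-linked genes that moved apart from their chromosome, X-linked genes were tested with normalization factors from X-linked genes alone. On this scale 54 of 2142 X-linked genes (2.52%) were higher and 29 (1.35%) were lower. Without mutant replicate 2 the counts were 10 and 10, and without wildtype replicate 4 they were 15 and 16. The genes with the lowest adjusted p among the higher ones were *Cyp4d1*, *CG6470*, *CG9360* and *Muc14A*, and all 4 were also higher without this scaling.

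*Cyp4d1* (FBgn0005670, BDGP6 chromosome X, 2159145 to 2162180), a cytochrome P450 gene, had 14.4, 10.3 and 17.3 CPM in the mutant libraries, against 1.94, 1.69 and 1.56 CPM in the wildtype libraries (log2 fold change 3.01, standard error 0.21, adjusted p = 2.57e-05). Its log2 fold changes in the single mutants were 4.15 (*roX1*) and 3.47 (*roX2*), and against both single mutants together the *roX1 roX2* mutant was lower, with a log2 fold change of -0.80. All 3 mutant genotypes thus lay above wildtype. *CG9360* (FBgn0030332, BDGP6 chromosome X, 11763474 to 11764590) had 25.7, 19.7 and 24.7 CPM in the mutant and 1.57, 0.809 and 1.23 CPM in wildtype (log2 fold change 4.28, adjusted p = 0.00111), beside 0.12 and 4.99 in the *roX1* and *roX2* mutants. *Muc14A* (FBgn0052580, BDGP6 chromosome X, 16009114 to 16061722), a mucin gene, had 5.60, 2.84 and 2.79 CPM in the mutant and 0.359, 0.116 and 0.0994 CPM in wildtype (log2 fold change 4.26, adjusted p = 0.00206), beside 1.22 and 0.62 in the *roX1* and *roX2* mutants. For *CG9360* every library with roX2[9-4] lay above every other library, and for *Muc14A* the 3 *roX1 roX2* libraries lay above the other 10. By the methods of the study, both strains with roX2[9-4] carry *v*[1], and the double mutant chromosome arose by a crossover between *cho* and *v*. The *roX2* deletion and other alleles from the *roX2* mutant chromosome therefore cannot be told apart for *CG9360*.

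Relative to the X-chromosome, 1 of 3 X-linked neuron and glia markers and 1 of 5 X-linked voltage-gated ion channels were higher, and none of 6 receptors and 3 synaptic genes was. Over all X-linked genes 2.52% were higher on this scale, and these 54 genes were 10 to 32 when a library was left out. *fne* (FBgn0086675, BDGP6 chromosome X, 12917477 to 12950417), an RNA-binding protein of neurons, had 214, 241 and 216 CPM in the mutant libraries, against 182, 196 and 158 CPM in the wildtype libraries. It was 0.87 above the X-chromosome on the log2 scale (adjusted p = 0.00456) and 0.33 without that scaling, which did not pass the test (adjusted p = 0.119). *eag*, a voltage-gated potassium channel, was at 1.0 relative to the X-chromosome (adjusted p = 0.0367) and 0.46 without the scaling (adjusted p = 0.244). The marker *moody* was at -0.17 relative to the X-chromosome (adjusted p = 0.539).

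Of the genes below their chromosome, *roX1*, *roX2*, *v* and *CG15599* had the lowest adjusted p. *CG15599* (FBgn0030667, BDGP6 chromosome X, 15684947 to 15688857), which has no function annotated in the files used here, had 0, 2 and 3 reads in the mutant libraries and 617, 447 and 420 reads in the wildtype libraries. Per read on genes it was 314 times more abundant in wildtype (95% counting interval 134 to 969), and the single mutants had log2 fold changes of -0.82 and -0.86. The next by adjusted p was *CG10353*, with 56.5, 57.6 and 57.0 CPM in the mutant and 211, 266 and 238 CPM in wildtype (log2 fold change -2.06, and -1.52 relative to the X-chromosome). *Idh3a* was at -0.56 relative to the X-chromosome (adjusted p = 0.0242).

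On the autosomes, the largest rises of genes passing 50 counts on average were of genes with low levels in wildtype. *CG43680* (FBgn0263763, BDGP6 chromosome 3L, 15052998 to 15053351) had 3.03, 3.19 and 3.29 CPM in the mutant libraries, against 0.0372, 0.0144 and 0.0662 CPM in the wildtype libraries, and was 82.8 times more abundant per read on genes in the mutant (95% counting interval 41.8 to 193). Its neighbour *CG18649* lies 216 bases away on the same strand and had 448, 449 and 496 CPM in the mutant and 223, 155 and 160 CPM in wildtype (log2 fold change 1.37, adjusted p = 0.00816). Reads of 2 such close genes may be shared by the counting. *wam* had 3.06, 2.64 and 1.82 CPM in the mutant and 0.297, 0.246 and 0.248 CPM in wildtype (log2 fold change 3.24), beside 2.14 and 2.06 in the *roX1* and *roX2* mutants.

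*Ptth*, the prothoracicotropic hormone that drives ecdysone synthesis, was higher at a low level. It had 3.58, 1.84 and 2.13 CPM in the mutant libraries, against 0.520, 0.173 and 0.0828 CPM in the wildtype libraries (log2 fold change 3.25, standard error 0.87, adjusted p = 0.0411). The call was lost when any of the libraries other than wildtype replicate 1 was left out, with an adjusted p of 0.13 without wildtype replicate 4. No other gene of 11 autosomal genes of ecdysone synthesis was called.

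Of the 6 most abundant autosomal genes called higher with groups that did not overlap, *CG18649*, described above, had the largest log2 fold change of 1.37, and the other 5 lay between 0.47 and 0.80. *CG18649* and *BckdhB* were called in all 6 fits that left out a library, and *pix* in 5. *BckdhB* (FBgn0039993, BDGP6 chromosome 2R, 1590484 to 1596457), a subunit of the branched-chain keto acid dehydrogenase, had 339, 372 and 368 CPM in the mutant libraries, against 214, 225 and 238 CPM in the wildtype libraries (log2 fold change 0.67, standard error 0.11, adjusted p = 0.00509). *pix*, an ATP-binding protein of ribosome recycling, had 770, 708 and 742 CPM in the mutant and 486, 537 and 542 CPM in wildtype (log2 fold change 0.51, adjusted p = 0.0108). In both genes the libraries of a genotype were close together. The splicing factor *hfp* (0.80), the ribosome biogenesis factor *RpL24-like* (0.72) and the translation initiation subunit *eIF3m* (0.47) were called in 2, 1 and 0 of those fits.

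Among the largest falls on the autosomes were genes with smaller differences in the single mutants. *CG30091* (FBgn0050091, BDGP6 chromosome 2R, 15680545 to 15682477), of the trypsin-like protease family, had 0.0510, 0.241 and 0.225 CPM in the mutant libraries, against 3.93, 2.82 and 2.85 CPM in the wildtype libraries (log2 fold change -4.24, standard error 0.49, adjusted p = 0.00111). It was at 0.10 in the *roX1* mutant and -0.78 in the *roX2* mutant. *CG11951* (FBgn0039656, BDGP6 chromosome 3R, 29235322 to 29238723) had 0.561, 0.517 and 0.706 CPM in the mutant and 5.40, 8.08 and 8.08 CPM in wildtype (log2 fold change -3.59, adjusted p = 0.00078), beside -0.82 and -0.74 in the single mutants. Other autosomal genes were as low in the single mutants: *BomS4*, an immune-induced peptide of the Bomanin family, had a log2 fold change of -5.14, beside -4.28 with *roX1* deleted and -4.13 with *roX2* deleted, so that wildtype had the highest level of the 4 genotypes.

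**Figure D4:**
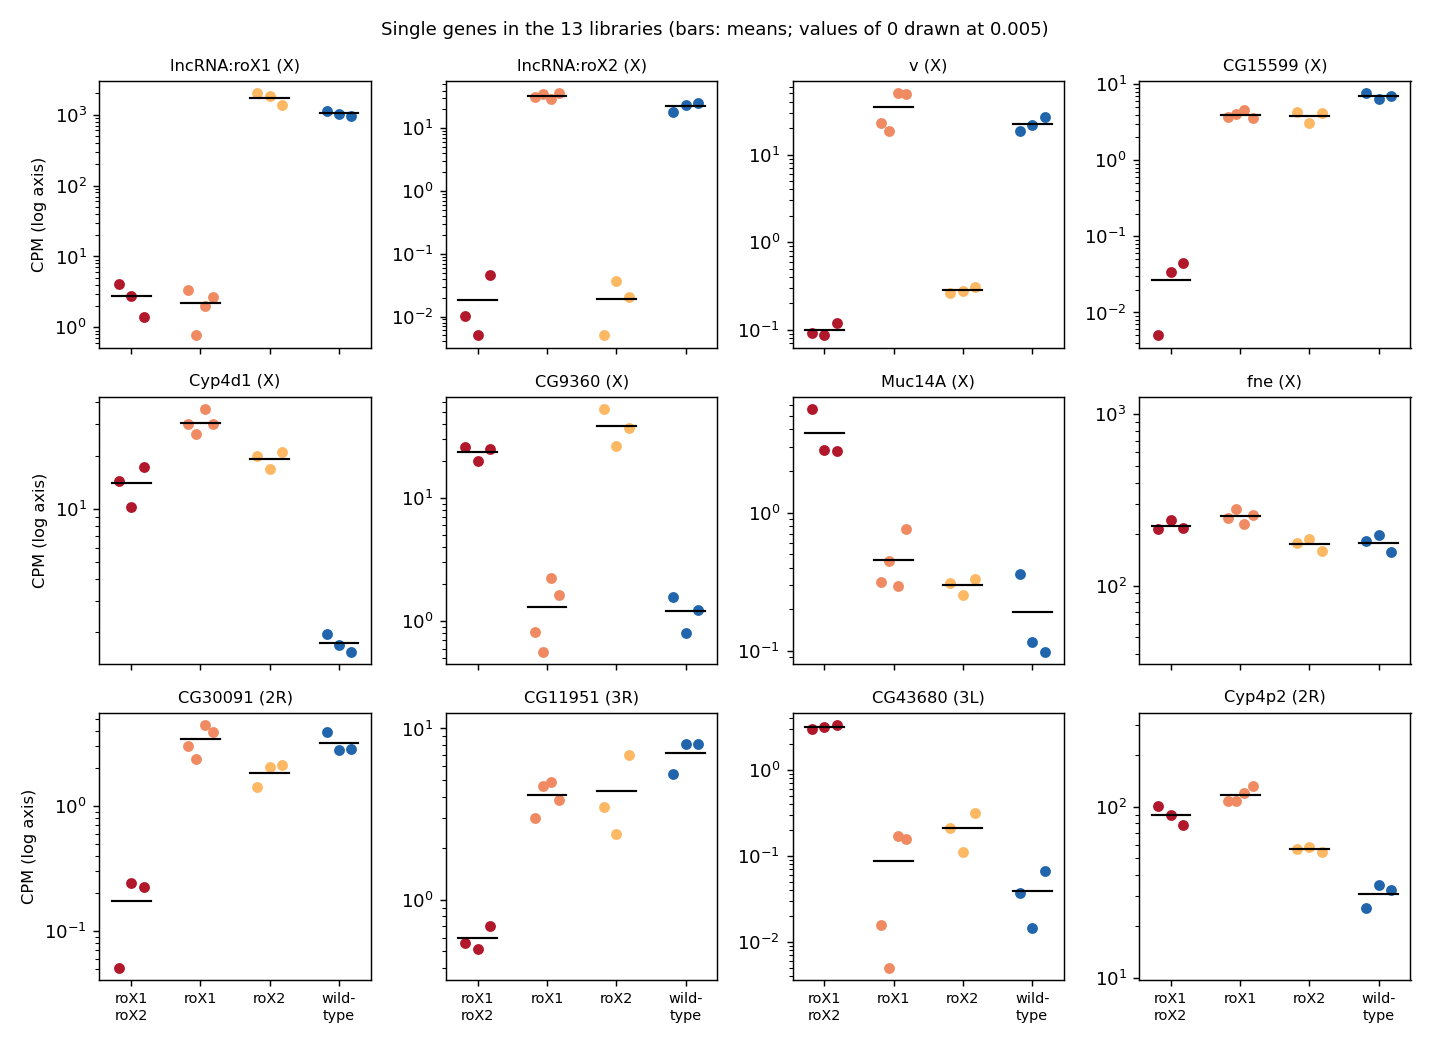
CPM of 12 genes on a log axis in each library, with the double mutant on the left, then the *roX1* mutant, the *roX2* mutant and wildtype; bars are means and values of 0 are drawn at 0.005. *v* and *CG9360* divide the genotypes by the roX2[9-4] allele, *Cyp4d1* and *Cyp4p2* separate all mutants from wildtype, and *CG15599*, *Muc14A*, *CG30091*, *CG11951* and *CG43680* stand apart in the *roX1 roX2* mutant.

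Cytochrome P450 enzymes, which oxidise hormones and foreign compounds, had calls in both directions. Of 68 autosomal members 6 were higher and 3 were lower, where 3.90% of all autosomal genes were higher and 1.75% were lower. Of 12 X-linked ones 1 was higher (*Cyp4d1*). *Cyp4p2* (FBgn0033395, BDGP6 chromosome 2R, 9237512 to 9239831) had 101, 89.7 and 78.0 CPM in the mutant libraries, against 25.8, 34.8 and 32.4 CPM in the wildtype libraries (log2 fold change 1.53, standard error 0.14, adjusted p = 0.000286), beside 1.92 and 0.86 in the single mutants. *Cyp6a2*, a gene linked to insecticide resistance, had 38.3, 17.1 and 20.2 CPM in the mutant and 222, 69.6 and 85.6 CPM in wildtype (log2 fold change -2.32, adjusted p = 0.0124), and again wildtype replicate 1 was the highest library. Without that library 4 autosomal members were higher and 2 were lower, and the autosomal median was 0.02 in place of -0.21. With another library left out, 2 to 4 were higher and 0 to 5 were lower, with the fewest higher (2) without mutant replicate 2 and none lower without mutant replicate 3.

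Other metabolic and secreted enzymes gave few calls. Of 10 maltases, which split sugars in the gut, *Mal-B2* (log2 fold change -0.81, adjusted p = 0.0192) and *Mal-A5* (-0.84, adjusted p = 0.0293) were lower and none was higher. Over all autosomal genes 1.75% were lower. *Mal-B2* had 17.96, 15.95 and 14.53 CPM in the mutant libraries, against 27.1, 28.1 and 29.8 CPM in the wildtype libraries, so the groups did not overlap. *Mal-B2* was called in 3 and *Mal-A5* in 1 of the 6 fits that left out a library. Of the 33 autosomal glutathione S-transferases and the 33 UDP-glycosyltransferases, which conjugate foreign compounds, edgeR called none. At an unadjusted p under 0.05, 7 and 6 of them were lower, and DESeq2 called 5 and 3 lower. Their medians of -0.43 and -0.56 were -0.20 and 0.03 without wildtype replicate 1.

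Among odorant-binding proteins, small secreted carriers, 4 of 33 autosomal members were lower and none was higher, where 1.75% of all autosomal genes were lower (median -0.33). *Obp56a* had 20.6, 28.1 and 32.4 CPM in the mutant libraries, against 91.4, 77.2 and 91.6 CPM in the wildtype libraries (log2 fold change -1.68, adjusted p = 0.00505), beside 2.74 and 0.84 in the *roX1* and *roX2* mutants. *Obp56d* was at -1.38, *Obp99d* at -1.74 and *Obp58c* at -0.81. The 4 calls stood at 4 without wildtype replicate 1, at 2 without wildtype replicate 4, mutant replicate 2 or mutant replicate 3, and at 7 without the 4 libraries with a negative component. *Obp56a* and *Obp99d* were called in all 6 fits that left out a library. The chemosensory receptors, at lower levels, had 4 of 120 autosomal members higher (*Ir60e*, *Gr98a*, *Ir48a* and *Or43b*) and 2 of 15 X-linked members lower (*Gr8a* and *Ir7g*). Neither share was above that of all genes of the same chromosomes (3.90% and 27.0%), and the 4 were 0 to 2 when a library was left out, with 0 without mutant replicate 2.

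Lists of the cuticle and its lining had some lower members on the X-chromosome. Of the X-linked members, 2 of 4 cuticle proteins (*Cpr11B* and *Cpr12A*), 2 of 4 Osiris and Tweedle proteins (*TwdlX* and *Twdlalpha*) and 3 of 6 genes of chitin synthesis and remodelling (*Idgf4*, *obst-A* and *rtv*) were lower and none was higher, where 27.0% of all X-linked genes were lower. Relative to the X-chromosome none was lower. The cuticle calls were 0 without wildtype replicate 3 or 4 or mutant replicate 2 or 3, those of Osiris and Tweedle proteins were 0 without mutant replicate 2 or 3, and those of chitin genes were 1 without any 1 of these 4 libraries. *Twdlalpha* had 6.87, 6.49 and 8.66 CPM in the mutant libraries, against 21.5, 21.6 and 25.4 CPM in the wildtype libraries (log2 fold change -1.64, adjusted p = 0.0117). Among autosomal members of these 3 lists, edgeR called none of 89, 42 and 27. At an unadjusted p under 0.05 the lower members of the 3 lists were 9, 1 and 5, 1 Osiris or Tweedle gene was higher, and DESeq2 called 5, 7 and 1 lower. The autosomal Osiris and Tweedle median of -2.23 was -0.10 without wildtype replicate 1, the library with the highest median of this list. The autosomal cuticle and chitin medians of -0.68 and -0.39 were -0.59 and -0.39 without it, and 1 chitin gene was then called lower. Without the 4 libraries with a negative component, 16 of the 89 cuticle proteins were lower and 1 was higher. In that fit 3 of the 27 chitin genes were lower and 2 were higher, and no Osiris or Tweedle gene was called.

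The genes of the dosage compensation machinery had small differences. *msl-2* (FBgn0005616, BDGP6 chromosome 2L, 3462218 to 3466112), whose protein is the male-specific subunit of the MSL complex, had 53.4, 55.9 and 53.6 CPM in the mutant libraries, against 39.2, 43.1 and 39.4 CPM in the wildtype libraries (log2 fold change 0.42, standard error 0.12, adjusted p = 0.0463). This call did not hold when any of the 6 libraries was left out, with an adjusted p of up to 0.149 without mutant replicate 3, nor with normalization over autosomal genes. The other autosomal subunits were at 0.35 (*msl-3*, adjusted p = 0.0636), 0.37 (*mle*, adjusted p = 0.112) and 0.20 (*msl-1*, adjusted p = 0.475), and the X-linked *mof* was at -0.36 (adjusted p = 0.0993).

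*Sxl*, the switch gene of sex determination whose female protein blocks translation of *msl-2*, is X-linked and had 145, 146 and 135 CPM in the mutant libraries, against 215, 222 and 197 CPM in the wildtype libraries (log2 fold change -0.58, adjusted p = 0.0149). Relative to the X-chromosome it was at -0.03. Counts per gene do not separate the male and female transcripts of *Sxl*. Among partners of the complex, *wds*, an X-linked WD40 protein of the NSL complex, was lower (-0.62, adjusted p = 0.0248) and the autosomal *dgt1*, a further NSL subunit, was higher (0.46, adjusted p = 0.0406). Of the 6 fits that left out a library, *Sxl* was called in 3, *wds* in 1 and *dgt1* in none.

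The autosomal DNA replication genes had a median of -0.17, with 11 of 18 below 0. Of these 18, *Orc4* and *Orc5*, subunits of the origin recognition complex, were higher, with log2 fold changes of 0.59 and 0.68 (adjusted p of 0.0218 and 0.0446), where 3.90% of all autosomal genes were higher. Of 3 X-linked ones, the helicase components *Cdc45* and *Mcm6* were lower, with -0.77 and -0.69 (adjusted p of 0.0113 and 0.034), where 27.0% of all X-linked genes were lower. *Cdc45* had 10.1, 9.44 and 9.18 CPM in the mutant libraries, against 16.4, 15.4 and 17.1 CPM in the wildtype libraries. The higher autosomal genes were 0 with a replicate block and without wildtype replicate 4 or mutant replicate 2 or 3, and the lower X-linked genes were 0 without mutant replicate 3. *Cdc45* was called in 5 and *Orc4* in 3 of the 6 fits that left out a library, and *Orc5* and *Mcm6* in none.

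Most genes of death, stress and growth were not called. The caspase *Drice* was the 1 of 17 autosomal genes of apoptosis called (log2 fold change 0.48, adjusted p = 0.0326), where 3.90% of all autosomal genes were higher. At an unadjusted p under 0.05 and by DESeq2, 1 member of this list was lower. *Drice* was called in 1 of the 6 fits that left out a library and not with normalization over autosomal genes. Of 25 autosomal heat shock proteins and chaperones 1 was higher, *Hsp70Bc* at under 1 CPM in all libraries, which was called in none of these fits, and its near-identical copies make the assignment of reads uncertain. The 2 X-linked members of this list had a median of -0.95 and no call by edgeR. Both were lower at an unadjusted p under 0.05 and by DESeq2, where edgeR called 27.0% of all X-linked genes lower. In the lists of Notch, insulin and TOR, and ecdysone response genes, edgeR called none of 55 autosomal and 9 X-linked members. DESeq2 called 1 lower, an X-linked member of the ecdysone response, and at an unadjusted p under 0.05, 3 autosomal and 2 X-linked members were lower and none was higher.

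Markers of blood, fat body, neurons and muscle were detected, as whole larvae contain them. Of 6 autosomal fat body markers, 4 passed the filter on counts and were tested. Of 12 blood cell markers 1 was lower, *Pxn*, a peroxidase of the basement membrane made by blood cells, with 24.9, 25.3 and 25.9 CPM in the mutant libraries and 39.7, 74.3 and 78.1 CPM in wildtype replicates 1, 3 and 4 (log2 fold change -1.33, adjusted p = 0.0322), a call kept only without wildtype replicate 1 when a library was left out. Over all autosomal genes 1.75% were lower. Of the 12 blood cell markers, 1 was higher and 3 were lower at an unadjusted p under 0.05, and DESeq2 called 1 higher and 2 lower. The summed level of the 4 autosomal fat body markers was 2737 to 4688 CPM in the mutant libraries and 5355 to 5736 CPM in the wildtype libraries, without a call by edgeR. Of these, 2 were lower at an unadjusted p under 0.05 and 1 by DESeq2. The sum of the 2 X-linked fat body markers went the other way, with 241.5 to 366.7 CPM in the mutant and 181.4 to 192.3 CPM in wildtype. Their log2 fold changes were 0.70 and -0.86, without a call by edgeR, and 1 was higher at an unadjusted p under 0.05. The part of these cell types in the muscle, mitochondrial and neuronal results was not tested. The salivary glue gene *Sgs5* was higher, with 5.65, 5.36 and 7.18 CPM in the mutant and 0.198, 0 and 0 CPM in wildtype (adjusted p = 0.013). It was the 1 call among 10 autosomal late larval genes, where 3.90% of all autosomal genes were higher. Of these 10, 7 were below 0, and of 6 X-linked late larval genes 4 were below 0 and none was called. The medians of -0.65 and -0.43 were 0.33 and 0.63 without wildtype replicate 1. Of the 21 Y-linked genes tested 1 was lower, *FDY*, at -1.80 in the *roX1 roX2* mutant and -2.66 and -1.12 in the single mutants; it is a copy of the autosomal gene *vig2*, so its reads may be shared.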

How the data were processed

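RNA-seq libraries were made from polyadenylated RNA of whole first instar larvae with the TruSeq RNA kit. Per the labels and methods, the authors mapped reads with STAR 2.5.1b, counted them on genes with HTSeq 0.6.1 and deposited raw counts per gene, without normalization. The methods give default settings for the counting and do not name a strand option. Lines of the files for reads without a gene held 10.3% to 23.8% of a library and were left out. Groups came from the genotype labels.

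The 13 libraries entered a single edgeR 4.0.16 model (R 4.3.3, genes whose counts sum to 20 or more, TMM normalization, quasi-likelihood test, 4 genotypes as groups), and p-values were adjusted by Benjamini-Hochberg over all genes. In the test relative to the X-chromosome, factors came from X-linked genes for X-linked genes and from major autosome genes for all others. Positions and symbols are from the Ensembl annotation BDGP6.54, whose release may differ from that of the counting. Counting intervals (95%) cover counting error only. p-values measure the spread between libraries of pooled larvae of 1 strain per genotype.

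Named genes were, for X-linked and autosomal genes and each direction, the 8 largest changes and 6 most abundant genes (by TPM) among called genes averaging 50 counts or more in a genotype, with groups that did not overlap, up to 4 called members of a list, all members of marker, MSL and strain lists, and the 4 lowest p-values in each direction relative to the X-chromosome. The text gives a selection of them. The gene lists, members and tests were chosen with earlier results of these data known. Only replicate numbers 3 and 4 occur in both genotypes, and nothing says what a number marks. The libraries were therefore not paired. DESeq2 1.42.0, other filters, scalings and controls, a replicate block and each library left out were alternatives. Scripts ran in python 3.11.15 with numpy 2.4.6, pandas 2.3.3, scipy 1.17.1 and matplotlib 3.10.9, and the fits were tested on simulated counts.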

Additional observations from a re-analysis of the deposited data

How the results depend on the processing

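The X-linked and autosomal medians differed by -0.61, with -0.62 to -0.59 when a library was left out, -0.574 without a filter on low counts and -0.557 against the single mutants as control. The X share differed by -3.574 percentage points, with -3.601 to -3.546 when a library was left out, -3.193 with the mitochondrial genome included and -3.427 against the single mutants. Counts of calls moved more, and the cause was not tested. The 452 higher autosomal genes were 826 by DESeq2, 273 with TMM over major autosome genes, 201 with a replicate block, 727 against the single mutants, 66 at an adjusted p under 0.01 and 95 to 293 when a library was left out. The 203 lower autosomal genes were 507 by DESeq2, 347 with the 2 genotypes fitted alone, 359 against the single mutants, 435 without the 4 libraries with a negative component, 60 under 0.01 and 66 to 171 when a library was left out. The 17 higher X-linked genes were 28 by DESeq2, 6 under 0.01 and 6 to 11 when a library was left out. The 578 lower X-linked genes were 191 under 0.01 and 205 to 425 when a library was left out. Relative to the X-chromosome, the 54 higher genes were 123 by DESeq2, 25 with a replicate block, 107 against the single mutants, 13 under 0.01 and 10 to 32 when a library was left out, and the 29 lower genes were 85 by DESeq2, 46 against the single mutants, 56 without the 4 libraries, 12 under 0.01 and 10 to 23 when a library was left out.

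Of 116 called genes named by the rule, 38 stayed called with each of the 6 libraries left out in turn, and none changed direction. The calls lost were 70, 73 and 41 without mutant replicates 2, 3 and 4, 36, 32 and 57 without wildtype replicates 1, 3 and 4, and 35 with the replicate block. DESeq2 lost none. For the replicate numbers shared by the genotypes, the deviations from the genotype means had correlations of 0.461 for number 3 and -0.103 for number 4. Over all pairs of a mutant and a wildtype library they ran from -0.421 to 0.461. These values cannot decide whether a number marks a pairing, because the wildtype means include replicate 1, which stood apart. Against the single mutants as control the log2 fold change had the other sign for *lncRNA:CR44660* (0.30), *lncRNA:CR45284* (1.18), *Cyp4d1* (-0.80), *swaPsi* (-0.44), *CG8664* (-0.38), *SkpE* (-0.46), *Gr8a* (0.15), *Cyp28a5* (-0.03) and *FDY* (0.09). Calls were rarest at low counts: 2.80% of the weakest of the 4 level groups of X-linked genes were lower, beside 38.6% of the most abundant.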
